A study of Mus musculus with 8 samples.

Results

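Long-term hematopoietic stem cells (LT-HSC), sequenced singly and sorted as negative for the surface protein Dlk1, were compared by whether their RNA held the imprinted long noncoding RNA Meg3. Each cell was reduced at random to 2000 unique molecular identifiers (UMIs, each standing for 1 captured transcript). A cell with at least 1 Meg3 UMI was called Meg3+ and a cell with none Meg3-. The 4 Dlk1- libraries held 307 cells with 2000 UMIs, of 497 such cells in all 8 libraries of the series. Of the 307 cells, 42 were Meg3+ and 265 were Meg3-, so every result on the Meg3+ class rests on 42 cells.

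The cells came from bone marrow of untreated male C57BL/6J wild-type mice aged 18 months, and marrow from femurs, tibiae, hips, ilia and vertebrae was pooled. They lacked lineage markers, CD48 and CD34, carried CD150, Kit and Sca1, and were sorted as Dlk1- (4 libraries) or Dlk1+ (4 libraries). RNA was measured with mCEL-Seq2, a plate-based method that tags the 3′ ends of polyadenylated RNA, and each library pooled 96 wells. By their file names, replicates 1 and 2 came from plate 5 and the other two from plate 6. Which or how many mice a library holds is not in the labels, so p-values measure the spread between libraries, which may be technical. Both classes of cells share each library, and the Dlk1+ libraries serve here as cells the Meg3 split of the Dlk1- libraries did not use.

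Meg3 is a maternally expressed long noncoding RNA of an imprinted cluster that also holds the maternally expressed noncoding RNAs Rian and Mirg, hosts of small nucleolar RNAs and microRNAs, and the paternally expressed gene Dlk1. In such a cluster each gene is transcribed mainly from the chromosome of 1 parent, and a differentially methylated region between Dlk1 and Meg3 sets which one. The maternally expressed RNAs are known to be abundant in long-term HSC, where microRNAs of the cluster restrain PI3K-mTOR signalling. Dlk1 is a transmembrane protein related to the Notch ligands, and its RNA and its surface protein need not be present in a cell at the same time.

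In the mm10 build the 4 genes lie on the plus strand of chromosome 12. Dlk1 spans chr12:109452823-109463336, Meg3 chr12:109541001-109571726, Rian chr12:109603940-109661716 and Mirg chr12:109729764-109749460. The start of Meg3, whose transcripts define the classes, is shown from 250 bases before to 50 bases after the RefSeq start site (chr12:109540746-109541045, plus strand, RefSeq on GRCm38.p6). Capitals mark 3 short elements searched on both strands: CCAAT, TGACGTCA (the palindromic cAMP response element) and TATAAA, whose 2 matches, on opposite strands, overlap.

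Meg3 promoter: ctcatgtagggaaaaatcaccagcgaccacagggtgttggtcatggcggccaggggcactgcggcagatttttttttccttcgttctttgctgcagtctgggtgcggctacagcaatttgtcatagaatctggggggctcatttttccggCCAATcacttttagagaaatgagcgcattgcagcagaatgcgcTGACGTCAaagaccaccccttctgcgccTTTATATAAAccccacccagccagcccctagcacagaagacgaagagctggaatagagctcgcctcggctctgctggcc

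TGACGTCA was present in 588 of 32851 mouse promoter windows of this length (1.79%), TATAAA in 4473 (13.6%) and CCAAT in 12289 (37.4%). These matches describe the letters of the window and say nothing on which factors bind there.

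Between 34 and 93 cells per Dlk1- library had 2000 UMIs, with library medians of 4693 to 5574.5 UMIs per cell before thinning. All 96 well barcodes were used by a kept cell in at least 2 of the 4 libraries and 29 in all 4. The 41 barcodes of Meg3+ cells included 1 that was Meg3+ in 2 libraries. Barcodes on which no Dlk1- cell was placed (344 over the 4 libraries) carried 40.97 UMIs each on average and 2 Meg3 UMIs among 14093, against 208 Meg3 UMIs among 1653424 on the cells' side. The Meg3 level was thus 141.9 CPM (counts per 1000000 UMIs) on the unused barcodes, with an exact 95% Poisson interval of 17.2 to 513, and 125.8 on the cells' side. A further 40 unused barcodes, which held foreign RNA and were left out, carried 5 Meg3 UMIs among 25978. Of the sorting markers, Kit was detected in 54.8% of Meg3+ and 54.7% of Meg3- cells. Ly6a, which encodes Sca1, was detected in 23.8% and 16.98%, and Slamf1, which encodes CD150, in 4.76% and 12.8%. Cd34 was detected in 4.76% and 10.2%, and Cd48 in 0 of 307 cells, which allows a share of up to 0.977% of cells with a UMI.

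The Meg3+ share differed widely between Dlk1- libraries. It was 11 of 93 cells (11.8%) in replicate 1, 6 of 34 (17.6%) in replicate 2, 3 of 92 (3.26%) in replicate 3 and 22 of 88 (25%) in replicate 4, so replicate 4 gave 22 of the 42 Meg3+ cells. The 95% exact binomial intervals, which like the limits from counts of 0 cover counting error only, were 0.678 to 9.23% in replicate 3 and 16.4 to 35.4% in replicate 4 and did not overlap. Within the class, 20 cells held exactly 1 Meg3 UMI of 2000, 12 held 2 and 10 held 3 or more, up to 6. A cell just inside the rule therefore differed from a cell just outside it by 1 UMI. Of 4 other random thinnings, each placed 42 to 50 cells in the class, with 5 to 8 in place of 3 in replicate 3.

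The Meg3- class was not free of Meg3. In the UMIs that thinning set aside, which the rule did not use, 27 of 265 Meg3- cells (10.2%) held Meg3, against 31 of 42 Meg3+ cells (73.8%). Meg3 stood at 404, 591, 318 and 822 CPM of these set-aside UMIs in the Meg3+ cells of replicates 1 to 4, and 44.2, 68.6, 45.1 and 58.3 in the Meg3- cells. Every Meg3+ value lay above every Meg3- value. The means were 534 ± 223 and 54.1 ± 11.7 CPM (SD, n = 4 libraries each), with ratios of 9.14, 8.61, 7.05 and 14.1 within replicates 1 to 4. A two-sided exact sign-flip test over 4 libraries gave p = 0.125, the smallest it can give. In the Dlk1+ libraries the same ratio was 2.47, 1.28 and 6.49 in replicates 1, 2 and 4.

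The Meg3+ share was 14.4 ± 9.19% in the Dlk1- libraries (SD, n = 4) and 35.5 ± 9.98% in the Dlk1+ libraries (n = 3). The Dlk1+ values were 26 of 82 cells (31.7%), 7 of 25 (28%) and 37 of 79 (46.8%) in replicates 1, 2 and 4. Replicate 3 of the Dlk1+ sort held only 4 cells and was left out. All 3 Dlk1+ libraries lay above all 4 Dlk1- libraries. The difference of -21.1 percentage points gave p = 0.0571 in a two-sided exact permutation test over 35 assignments, whose smallest p is 0.0286.

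**Figure D1:**
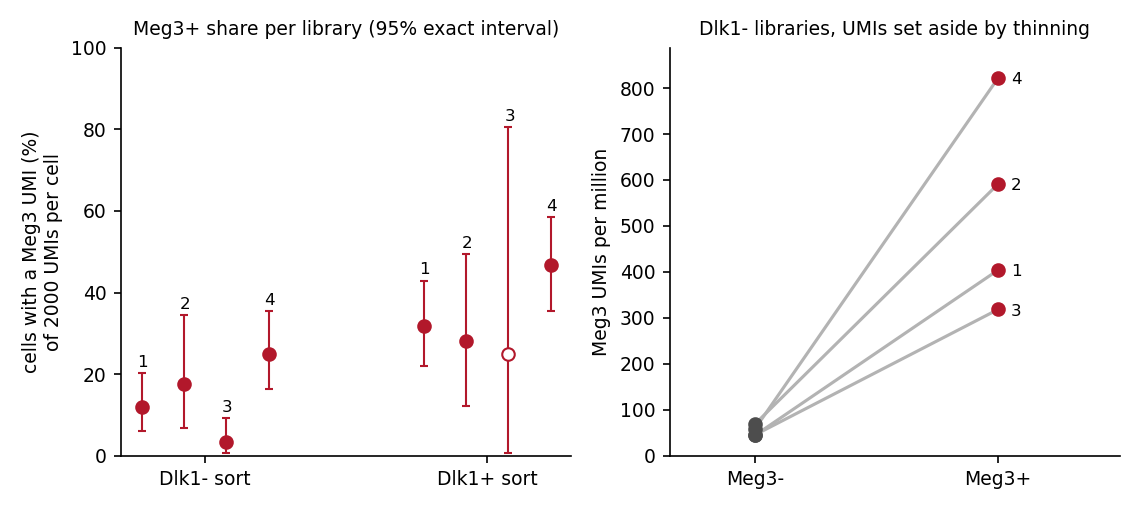
Left, the percentage of cells with a Meg3 UMI at 2000 UMIs per cell (y axis) in each library of both sorts, with 95% exact binomial intervals, numbers giving the replicate and the open circle the Dlk1+ library of 4 cells. Right, Meg3 in CPM of the UMIs that thinning set aside, in Meg3- and Meg3+ cells of each Dlk1- library joined by a line; all 4 lines run upward, from 44.2 to 68.6 up to 318 to 822.

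The neighbouring genes of the cluster were detected in a larger share of Meg3+ than of Meg3- cells in pooled counts, and the difference came from replicates 2 and 4. Dlk1 RNA was present in 7 of 42 Meg3+ cells (16.7%, exact 95% interval 6.97 to 31.4%) and in 4 of 265 Meg3- cells (1.51%, 0.413 to 3.82%), although all cells had been sorted as lacking surface Dlk1. In replicate 4, 6 of 22 Meg3+ and 1 of 66 Meg3- cells held a Dlk1 UMI, and in replicate 2 it was 1 of 6 and 1 of 28. In replicate 1 no cell of either class held one, and in replicate 3 it was 0 of 3 and 2 of 89. Replicates 1 and 3 had too few Meg3+ cells to show such a share, since the exact 95% upper limits for 0 of 11 and 0 of 3 cells are 28.5% and 70.8%. In all UMIs of the same cells, Dlk1 was found in 1 of 3 Meg3+ and 3 of 89 Meg3- cells of replicate 3. In replicate 1 it was 0 of 11 and 2 of 82, and over all libraries 9 of 42 and 9 of 265.

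Rian, the small nucleolar RNA host downstream of Meg3, was detected in 6 of 42 Meg3+ cells (14.3%) and 9 of 265 Meg3- cells (3.396%). The Meg3+ cells with Rian were 2 of 6 in replicate 2 and 4 of 22 in replicate 4, with none in replicates 1 and 3. Mirg, a microRNA host further downstream, was detected in 3 of 42 Meg3+ cells (7.14%), 1 in replicate 2 and 2 in replicate 4. It was detected in 0 of 265 Meg3- cells, which allows a share of up to 1.13%. Averaged over libraries, the share in Meg3+ cells exceeded that in Meg3- cells by 9.15 percentage points for Dlk1, 9.50 for Rian and 6.44 for Mirg. Each gave p = 0.5 in the exact sign-flip test (0.5 adjusted over the 3 genes). The smallest p over 4 libraries is 0.125. Dlk1, at 0 in both classes of replicate 1, could not have reached it. Mirg, at 0 in both classes of replicates 1 and 3, could not have gone below 0.5. Without replicate 4 the Dlk1 difference was 3.62 points, and without replicate 2 the differences were 2.74 points for Rian and 3.03 for Mirg.

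Detection of the cluster was sparse even in the Meg3+ class. Rian or Mirg was found beside Meg3 in 9 of 42 cells, Dlk1 together with Rian or Mirg in 3, and none of the 3 genes in 29. Dlk1 was found in 4 of the 20 cells with 1 Meg3 UMI and in 3 of the 22 cells with more.

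**Figure D2:**
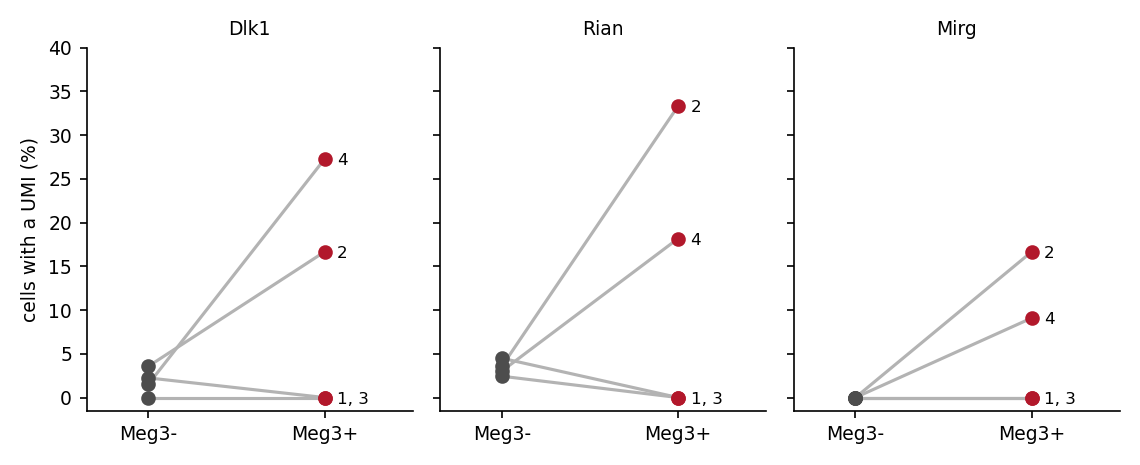
Percentage of cells with a UMI of Dlk1, Rian or Mirg (y axis, common scale) in Meg3- and Meg3+ cells of each Dlk1- library at 2000 UMIs per cell, with the replicate number beside the Meg3+ point. The lines of replicates 2 and 4 run upward for all 3 genes, and the Meg3+ points of replicates 1 and 3 are at 0.

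Across all other genes, no gene was called. UMIs were summed over the cells of a class within a library, Meg3 was left out, and 457 genes that passed a filter on low counts were tested with limma-voom with library as a block. Of these, 0 genes (0%) passed a false discovery rate of 0.05 after Benjamini-Hochberg adjustment. A quasi-Poisson fit chosen after seeing the data also called 0. At unadjusted p under 0.05 limma-voom placed 18 genes higher (3.94%) and 10 lower (2.19%) in Meg3+ cells. The sums of Meg3+ cells held 21983, 11988, 5994 and 43952 UMIs in replicates 1 to 4, so that 1 UMI in replicate 3 is already worth 166.8 CPM. On simulated data for this comparison, with 457 genes of which 200 were changed, the test found 23.5% of the changed genes at 2-fold, 80% at 4-fold and 92.5% at 8-fold. A change of 2-fold would thus have been missed for most genes. Settings with fewer changed genes or another spread were not simulated, so the shares found may not hold there.

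Without a call, the genes are described by their level. Of the 457 genes, 46 (10.1%) were higher and 31 (6.78%) lower in the Meg3+ sums of all 4 libraries, and in 15 (3.28%) and 8 (1.75%) the values of the classes did not overlap. The 10 with the smallest p in each direction are named here. Of these, Plcg2, Tbxas1 and Txn1 passed the filter only through the class where they are high. That fixed their lack of overlap, and they are part of the counts without overlap. Glul, which encodes glutamine synthetase, stood at 728, 667, 834 and 819 CPM in Meg3+ cells of replicates 1 to 4 and at 402, 339, 404 and 492 CPM in Meg3- cells. The classes did not overlap, and the log2 fold change was 0.82 (SE 0.19, limma-voom adjusted p = 0.563). With the other 4 random thinnings it was 0.11 to 0.56.

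Ifitm1, an interferon-induced membrane protein and HSC marker, stood at 1365, 1835, 1668 and 1911 CPM in Meg3+ cells against 835, 946, 871 and 1371 CPM. Only replicate 4 of the Meg3- cells, at 1371, exceeded the lowest Meg3+ value, and the log2 fold change was 0.63 (SE 0.15, limma-voom adjusted p = 0.563). Adgrg1, an adhesion receptor known on stem cells, stood at 1183, 1335, 1335 and 1820 CPM against 933, 696, 882 and 1258 CPM, with overlap between the classes. Its log2 fold change was 0.52, and 0.03 to 0.39 with the other thinnings, against 0.42 to 0.60 for Ifitm1. Tsc22d1, a leucine zipper protein induced by TGF-beta, stood at 409, 834, 1835 and 796 CPM against 323, 500, 326 and 432 CPM, so that its highest value came from the 3 Meg3+ cells of replicate 3. The other genes higher in 4 of 4 libraries were the signalling lipase Plcg2 (log2 fold change 1.00), the thromboxane synthase Tbxas1 (0.88), the predicted gene Gm21092 (0.77), the splicing factor Srsf5 (0.67), the endoplasmic reticulum protein Tmbim6 (0.60) and the RNA helicase Ddx5 (0.47). Their limma-voom adjusted p was 0.719 in each case. All Meg3- sums of Plcg2 and Tbxas1 lay under the filter's minimum of 200 CPM, so both were tested only through their Meg3+ sums. Of the 4 other thinnings, Plcg2 could be fitted in 0 and Tbxas1 in 1.

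Among genes lower in Meg3+ cells, Eif5a, a translation factor, stood at 364, 667, 166.8 and 501 CPM in replicates 1 to 4 against 744, 786, 702 and 917 CPM. The classes did not overlap, and the log2 fold change was -0.92 (SE 0.26, limma-voom adjusted p = 0.563), but -0.50 to -0.22 with the other thinnings. Txn1, the redox protein thioredoxin, stood at 0, 83.4, 166.8 and 91.01 CPM against 287, 286, 208 and 227 CPM, again without overlap. All Meg3+ sums of Txn1 lay under the filter's minimum of 200 CPM. It was thus tested only through its Meg3- sums, and the filter fixed the lack of overlap. Its log2 fold change was -1.57 (SE 0.53, limma-voom adjusted p = 0.719), and a value of 0 to 4 UMIs lay behind each Meg3+ sum. Tuba1a, an alpha tubulin, stood at 455, 334, 334 and 319 CPM against 695, 911, 697 and 462 CPM. The remaining genes lower in 4 of 4 libraries were the glycolytic enzyme Gpi1 (log2 fold change -0.99), the histone variant H2afz (-0.85), the glutathione peroxidase Gpx1 (-0.84), the RNA-binding protein Hnrnpa3 (-0.68), the cell cycle regulator Ccnd2 (-0.63), Lrrc58 (-0.60) and the mitochondrial ribosomal RNA mt-Rnr2 (-0.46), each with a limma-voom adjusted p of 0.719. Over the 20 genes and the 4 other thinnings, 69 of 73 log2 fold changes that could be fitted were smaller than the value given here or had the other sign. With another random seed for the thinning, another depth or all UMIs the sign turned in at least 1 setting for Gm21092, Srsf5, Gpx1, H2afz, Hnrnpa3, Ccnd2, Lrrc58 and mt-Rnr2.

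**Figure D3:**
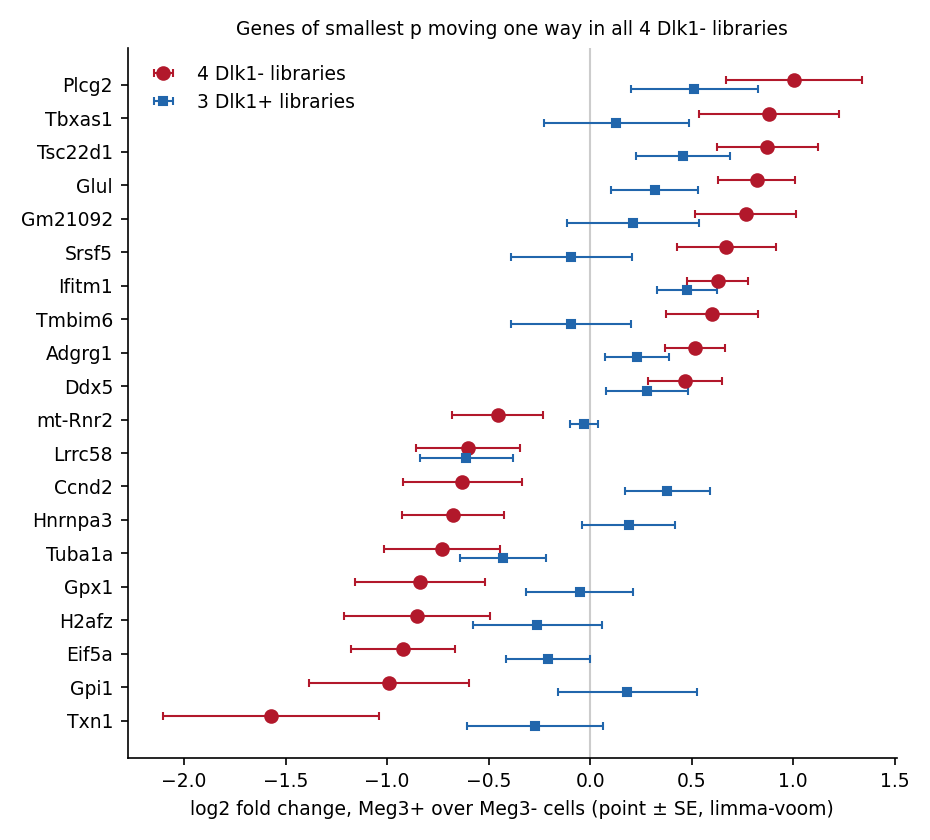
Log2 fold change of Meg3+ over Meg3- cells with its standard error (x axis, limma-voom) for the 20 genes named by smallest p, in the 4 Dlk1- libraries (circles) and in 3 Dlk1+ libraries (squares). The circles were chosen for lying far from 0 and none was called; the squares lie nearer to 0 for 19 of the 20 genes, with Lrrc58 at -0.60 and -0.61.

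Genes of the cell cycle were at lower levels in the Meg3+ cells, in 4 of 4 libraries. The list of S phase genes (25 genes, such as the replication clamp Pcna and the Mcm helicase subunits) summed to 500, 334, 834 and 478 CPM in Meg3+ cells of replicates 1 to 4 and to 1055, 1107, 933 and 955 in Meg3- cells. The list for G2 and mitosis (28 genes, 27 of them in the tables) summed to 500, 918, 501 and 751 against 1512, 2143, 1140 and 1227. For both lists every Meg3+ sum lay below every Meg3- sum. As means over cells the values were 537 ± 212 against 1012 ± 82.7 CPM for S phase and 667 ± 204 against 1506 ± 453 for G2 and mitosis (SD, n = 4). Each gave p = 0.125, the smallest the exact sign-flip test can give over 4 libraries, and 0.292 adjusted over 7 per-cell measures. With medians over cells in place of means the differences shrank to -125 CPM for each list.

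The same order held in 4 of 4 libraries for both lists with each of the 4 other random thinnings, an alternative added after seeing the data. Cells with many UMIs of these lists were then counted. At 2000 UMIs, 28 of 265 Meg3- cells (10.6%) held at least 5 UMIs of the S phase list, and 0 of 42 Meg3+ cells did, which allows a share of up to 7.14%. For G2 and mitosis it was 30 of 265 (11.3%) and 1 of 42 (2.38%). At least 10 UMIs of the G2 and mitosis list were held by 17 Meg3- cells (6.42%), which carried 330 of the 733 UMIs of that list in the class, and by 0 Meg3+ cells. By library they were 8 of 82, 4 of 28, 4 of 89 and 1 of 66 Meg3- cells in replicates 1 to 4. Replicate 4 had the smallest share of such cells and gave 22 of the 42 Meg3+ cells. The pooled counts therefore mix library with class. A share of 6.42% lies under the limit of 7.14% that 0 of 42 allows, so at this number of cells the absence of such cells from the Meg3+ class was not detectable as a difference. In cells with fewer than 10 UMIs of the list, the mean was 1.38 UMIs in Meg3+ and 1.62 in Meg3- cells for G2 and mitosis, and 0.976 and 1.48 for S phase. For S phase, where 12 Meg3- cells held 10 UMIs or more, the means over all cells were 0.976 and 1.99. The means are pooled over libraries as well. These cell counts were chosen after the values were seen.

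Single cycle genes can also be read from all UMIs of the same cells. Such sums give cells with more UMIs more weight, and the largest cell held 7146 UMIs in the Meg3+ and 14443 in the Meg3- class. In these sums 2120 genes passed the filter. All 4 S phase genes tested there had a negative log2 fold change, with 3 of them at unadjusted p under 0.05, and so did all 6 genes of the G2 and mitosis list, 5 of them at that level, against 69 of all 2120 genes (3.25%). These counts are in part set by the filter. Mcm6 passed it only through Meg3- sums, and Dut, Top2a and Bub3 mostly through Meg3- sums. The topoisomerase Top2a stood at 0, 0, 162.9 and 9.44 CPM in Meg3+ cells against 119.4, 165.7, 85.6 and 64.8 CPM, higher in replicate 3 and lower in the other libraries. The condensin subunit Smc4 stood at 17.7, 103.8, 0 and 75.5 CPM against 140, 214, 157.7 and 137.99 CPM (log2 fold change -1.54, SE 0.42, limma-voom adjusted p = 0.304). H2afz stood at 105.98, 242, 81.5 and 227 CPM against 347, 460, 270 and 335 CPM. The proliferation marker Mki67 had 0 UMIs among the 203727 UMIs of the Meg3+ cells, which allows up to 14.7 CPM over the class, and stood at 170, 208, 78.9 and 33.8 CPM in Meg3- cells. These genes were picked from the 2 lists after their values were seen.

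**Figure D4:**
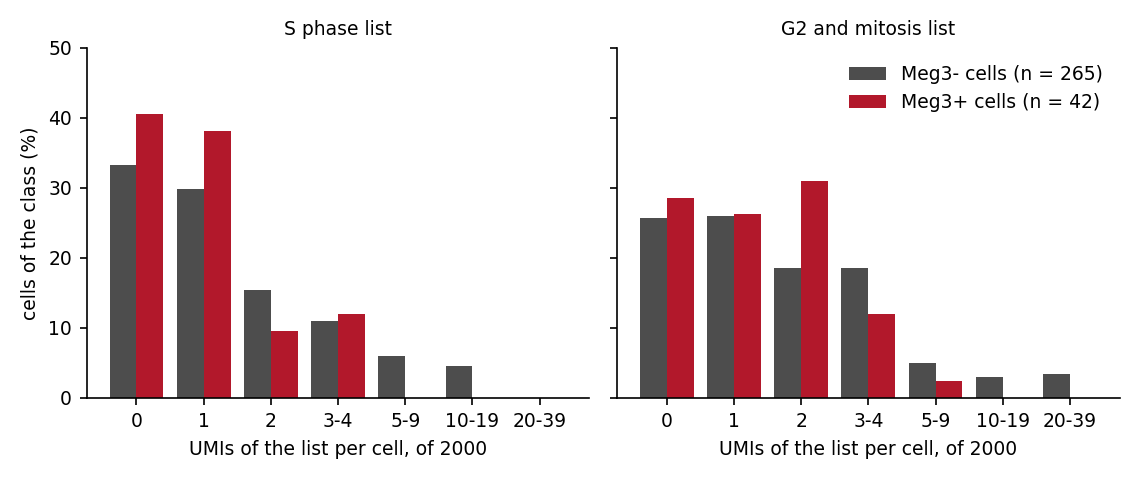
Percentage of the cells of each class (y axis) by the number of UMIs of the S phase list and of the G2 and mitosis list they held out of 2000 (x axis, binned), for 265 Meg3- and 42 Meg3+ cells pooled over the 4 Dlk1- libraries. Both classes peak at 0 to 2 UMIs, and the bins from 10 UMIs hold Meg3- cells only, 12 for S phase and 17 for G2 and mitosis. Pooling mixes library with class, as replicate 4 gave 22 of the Meg3+ and 66 of the Meg3- cells.

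Genes that mark HSC identity were, as a summed list, at higher levels in Meg3+ cells. The 26 genes of the list, all present in the tables, summed to 7233, 8258, 7007 and 7940 CPM in Meg3+ cells of replicates 1 to 4 and to 5305, 5500, 5303 and 6712 CPM in Meg3- cells, without overlap. With the other random thinnings the sums were higher in 4 libraries with 2 seeds and in 3 with the other two. Ifitm1 alone contributed 1365 to 1911 and 835 to 1371 CPM of these sums. Of the 10 members that passed the filter, 9 had a positive log2 fold change, against 235 of 457 genes (51.4%), with a median of 0.36 against 0.01 over all genes. Within plates the median was 0.60 on plate 5 and 0.06 on plate 6. The transcription factor Hlf stood at 500, 584, 1502 and 842 CPM in Meg3+ cells against 451, 607, 596 and 447 CPM in Meg3- cells, lower in replicate 2 and higher in the other 3. The stem cell factor receptor Kit stood at 819, 501, 501 and 432 CPM against 476, 518, 404 and 424 CPM. Gata2 was the tested member with a negative value, at 364, 83.4, 334 and 546 CPM against 530, 482, 382 and 591 CPM. Slamf1 and Cd34 are on the list but did not pass the filter. In pooled counts each was detected in 4.76% of Meg3+ cells, against 12.8% and 10.2% of Meg3- cells. In all UMIs 17 of 19 members tested were positive, against 54.9% of all 2120 genes, among them the surface protein Procr at 105.98, 208, 244 and 160 CPM against 75.8, 150, 108.2 and 101.4 CPM (log2 fold change 0.67, limma-voom adjusted p = 0.639).

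**Figure D5:**
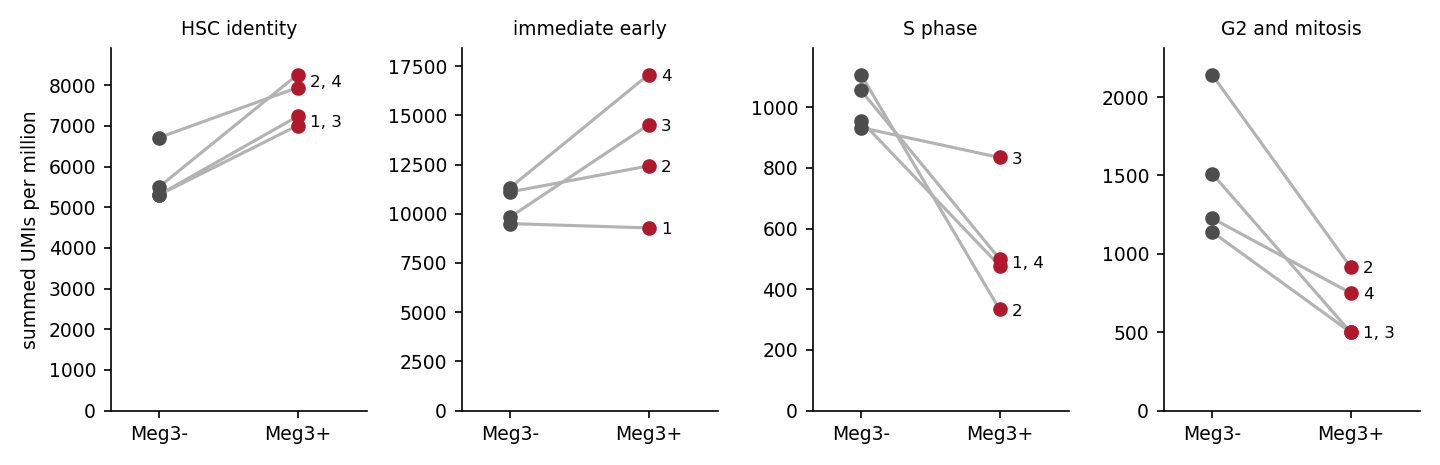
Summed CPM of 4 gene lists (y axes from 0, scaled per panel) in Meg3- and Meg3+ cells of each Dlk1- library, joined by a line, with the replicate number beside the Meg3+ point. All 4 lines run upward for HSC identity and downward for S phase and for G2 and mitosis. For immediate early genes the line of replicate 1 runs downward, from 9500 to 9280.

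Immediate early genes, which are induced within minutes by growth factors and by stress such as cell isolation, were at higher levels in Meg3+ cells of 3 libraries, and of 2 to 4 libraries with the other random thinnings. The 20 genes summed to 9280, 12429, 14515 and 17064 CPM in replicates 1 to 4 against 9500, 11107, 9831 and 11326 CPM. Of 14 members tested 12 were positive with a median of 0.37, and 5 stood at unadjusted p under 0.05, against 3.94% of all genes. In all UMIs of the same cells 8 of 16 members did, against 4.48% of 2120 genes. Jund, a subunit of the AP-1 transcription factor, stood at 1729, 1418, 1835 and 1866 CPM against 1189, 1339, 1197 and 1265 CPM, without overlap (log2 fold change 0.41, SE 0.18, limma-voom adjusted p = 0.719). Egr1, a zinc finger transcription factor, stood at 682, 1084, 1668 and 1251 CPM against 872, 589, 809 and 750 CPM. The most abundant AP-1 subunit genes of the list, Fos and Jun, had log2 fold changes of -0.07 and 0.28.

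The quiescence list, which shares Egr1, Fosb, Klf6 and other members with the immediate early list, had 6 of 7 tested members positive with a median of 0.18. Its sums were 3457, 6423, 6173 and 6780 CPM against 4341, 4482, 4416 and 4985 CPM, lower in replicate 1. Cdkn1a, the cyclin-dependent kinase inhibitor p21 of that list, was the single gene called when all UMIs of the same cells were summed, 1 of 2120 (0.0472%). It stood at 212, 208, 570 and 349 CPM in Meg3+ cells of replicates 1 to 4 and at 107.9, 42.8, 112.7 and 126.7 CPM in Meg3- cells, without overlap. Its log2 fold change was 1.55 (SE 0.29, limma-voom adjusted p = 0.0354). The size varied little when a library was left out, from 1.39 to 1.71, but the call held only without replicate 1 (adjusted p = 0.0335) and was lost without replicate 2, 3 or 4 (0.0591, 0.105 and 0.195). Without replicate 1 there were 6 calls, among them Dlk1 (log2 fold change 3.84, SE 0.60, limma-voom adjusted p = 0.00235), which did not pass the filter over all 4 libraries, and Gm26870, Gm10800, Gm21833 and Gm29055. Dlk1 passed the filter of that fit only through its Meg3+ sums, where it is high. The library left out, replicate 1, held 0 Dlk1 UMIs in its Meg3+ cells. In the sums of 2000 UMIs per cell, where Cdkn1a did not pass the filter, it stood at 90.98, 166.8, 501 and 319 CPM against 134.1, 17.9, 78.7 and 121.2 CPM, so replicate 1 went the other way.

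With the classes also set from all UMIs, 69 cells were Meg3+ and 16 of 2002 genes (0.799%) were called, 11 of them higher and 5 lower. This setting lets cells with more UMIs enter the class more often. The 11 genes higher in Meg3+ cells were Cdkn1a (log2 fold change 1.15), Ifitm1 (0.69), Procr (1.03), Sult1a1 (1.05), Zfp36 (0.54), Zfp36l2 (0.42), the fatty acid desaturase Scd2 (0.85), the predicted gene Gm7676 (1.07), Pcp4l1 (1.26), Znrf1 (0.73) and Ddx5 (0.51). The 5 lower ones were Top2a (-2.92), Tuba1a (-0.94), the beta tubulin Tubb5 (-0.64), the prolyl isomerase Ppia (-0.46) and the small nuclear protein Ptma (-0.32). Their limma-voom adjusted p lay between 0.0230 for Cdkn1a and 0.0445 for Ppia. Top2a passed the filter mostly through Meg3- sums and Pcp4l1 mostly through Meg3+ sums. Leaving out 1 library left 0 calls without replicate 1 or 4, 2 without replicate 2 (Cdkn1a, Ifitm1) and 5 without replicate 3 (Ifitm1, Sult1a1, Top2a, Cdkn1a, Tuba1a).

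Of the measures of cell quality, genes detected per cell differed little between the classes. Median UMIs per cell before thinning were 5125, 4306.5, 4310 and 4869.5 in Meg3+ cells and 4857.5, 5726.5, 4705 and 5433.5 in Meg3- cells, lower in 3 of 4 libraries (exact sign-flip p = 0.25). The largest number of UMIs in a cell was 7146 in the Meg3+ and 14443 in the Meg3- class. Genes detected at 2000 UMIs were 984 ± 56.4 and 988 ± 56.9 (SD, n = 4). The share of UMIs from the mitochondrial genome was 10.1 ± 1.36% and 10.8 ± 1.15%. The ribosomal protein share was 12.3 ± 1.32% and 11.2 ± 1.09%, higher in Meg3+ cells of 4 of 4 libraries (exact sign-flip p = 0.125, the smallest possible). The part of depth in the gene results was not tested beyond thinning to equal UMIs.

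Markers of stroma, B cells and T cells were at low levels in both classes. The stroma list of 17 genes had 3 members detected in Meg3+ cells and summed to 0 to 113.8 CPM against 71.4 to 83.3 CPM, with Col1a1, Col1a2, Pdgfra, Lepr and Dcn at 0 in the Meg3+ sums. B cell markers summed to 0 to 83.4 CPM and 18.3 to 53.6 CPM, and T cell markers to 0 to 45.5 CPM and 17.9 to 36.6 CPM. Endothelial markers, some of which HSC share, summed to 334 to 918 CPM against 250 to 538 CPM and were higher in Meg3+ cells of 4 of 4 libraries. Their part in the results was not tested.

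Lineage programs gave no common direction. Megakaryocyte and platelet genes summed to 2184, 3086, 2002 and 2252 CPM in Meg3+ cells of replicates 1 to 4 and to 1921, 1679, 1854 and 2136 CPM in Meg3- cells, higher in 4 of 4 libraries, but the 3 members tested had a median log2 fold change of 0.01. Myeloid genes summed to 166.8 to 1168 CPM against 618 to 780 CPM, and erythroid genes to 334 to 1335 CPM against 786 to 1043 CPM. Lymphoid genes summed to 334 to 523 CPM against 382 to 515 CPM. Of 14 myeloid genes present in the files, 9 had 0 UMIs in the Meg3+ sums, among them the granule genes Elane, Mpo and Ctsg, and as many had 0 in the larger Meg3- sums. The granule gene Prtn3 stood at 364, 501, 0 and 455 CPM in Meg3+ cells of replicates 1 to 4 against 293, 196.4, 213 and 318 CPM. Of the 15 erythroid genes 9 had 0 UMIs in the Meg3+ sums, Gata1 and Klf1 among them, and 6 in the Meg3- sums.

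In the Dlk1+ libraries, whose cells the rule did not use, the same split of 26, 7 and 37 Meg3+ cells from 56, 18 and 42 Meg3- cells called 5 of 665 genes (0.752%). Jund was at 1713, 3861 and 2003 CPM in Meg3+ cells of replicates 1, 2 and 4 against 1420, 2139 and 1143 CPM (log2 fold change 0.57, SE 0.13, limma-voom adjusted p = 0.00388). The nucleolar protein gene Ncl (-0.90), the beta actin gene Actb (-0.38) and the predicted genes Gm21833 (-0.72) and Gm26870 (-0.29) were lower. Without replicate 2 or without replicate 4 none of these calls was left, and without replicate 1 there were 9. In the Dlk1- libraries Jund had a log2 fold change of 0.41, Gm26870 -0.39, Actb -0.23, Gm21833 -0.60 and Ncl 0.07. Of the genes named above, 8 of the 10 higher and 7 of the 10 lower had the same sign in the Dlk1+ libraries, against 259 of 436 genes (59.4%) tested in both.

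The lists gave partly the same order of classes in the Dlk1+ libraries. S phase genes summed to 404, 1001 and 853 CPM in Meg3+ cells of replicates 1, 2 and 4 against 982, 1639 and 1262 CPM, and G2 and mitosis genes to 674, 715 and 1191 CPM against 1188, 2083 and 1571 CPM, lower in 3 of 3 libraries for both. Immediate early genes summed to 11858, 18589 and 16187 CPM against 10152, 8778 and 14310 CPM. HSC identity genes summed to 5756, 8722 and 9352 CPM against 5777, 6806 and 7107 CPM, with replicate 1 nearly level. Cdkn1a stood at 192.5, 0 and 135.3 CPM in Meg3+ cells against 223, 361 and 226 CPM, lower in 3 of 3 libraries, opposite to its direction in all UMIs of the Dlk1- cells. Cdkn1a did not pass the filter of the fit over both sorts. In the 3 fits leaving out a library in which it did, Dlk1- replicate 1, Dlk1- replicate 2 or Dlk1+ replicate 2, its log2 difference between sorts was -2.90, -2.44 and -1.92 (limma-voom adjusted p = 0.231, 0.994 and 0.996), none of them called.

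The difference of the Meg3 contrast between sorts was tested for 497 genes as an interaction, and 0 (0%) were called by limma-voom, with 9 genes (1.81%) having a larger and 6 (1.21%) a smaller fold change in the Dlk1+ libraries at unadjusted p under 0.05. Dlk1 itself came closest, with a log2 difference of -2.60 (SE 0.51, limma-voom adjusted p = 0.0517). It was not called, and it passed the filter of this fit through the Dlk1+ sums, where it is abundant. In Dlk1+ libraries a Dlk1 UMI was found in 17 of 26 Meg3+ and 30 of 56 Meg3- cells of replicate 1, 5 of 7 and 10 of 18 of replicate 2, and 27 of 37 and 24 of 42 of replicate 4. With Dlk1- replicate 3 left out Dlk1 was called (adjusted p = 0.0142), and with Dlk1- replicate 4 left out its adjusted p was 0.545. The levels in Dlk1- cells behind this value are 12 and 4 UMIs over all Meg3+ and Meg3- cells.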

How the data were processed

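The files hold, for 8 mCEL-Seq2 libraries, transcript values per gene and well barcode. Per the submitters' processing notes BWA 0.6.2-r126 and mm10 were used; other steps are not given in the sources used here. The deposited values are another kind of number than plain counts: estimated transcript counts after the correction for UMI collisions. Inverting that correction gave whole UMIs (largest distance from a whole number 3.64e-12, tolerance 1e-06).

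Of barcodes 97 to 192 of the Dlk1- tables, 308 had at least 2000 transcripts, and 307 had 2000 UMIs. Dlk1+ cells used barcodes 1 to 96, less 10 with foreign RNA. No doublet caller was run. Cells were thinned to 2000 UMIs (seed 1), split by Meg3 and summed by class and library, and CPM exclude Meg3. A gene was tested where its CPM reached that of 10 UMIs in the median sum in at least 4 of 8 sums, with at least 15 UMIs in all. The tests were limma-voom (limma 3.58.1, R 4.3.3) with TMM scaling and library as block. They took the place of edgeR, which was not run because the automatic unit check could not read these tables as counts. Pairing comes from the shared library. Self-test dispersion was 0.1.

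Named genes were all called genes, the 10 of smallest p in each direction among genes higher or lower in all 4 libraries, Rian, Mirg, Dlk1 and the 3 most abundant tested members of each list; further genes named from lists were chosen after their values were seen. The Meg3 split, the 30 gene lists and the named groups were chosen with earlier results of these data known. Promoter bases are from RefSeq, gene positions from GENCODE. Alternatives covered scaling, filter, block, seed, depth, the class threshold, left-out libraries and plates; the quasi-Poisson fit, the set-aside UMIs, counts of cycling cells, list sums with other seeds and leave-one-out of the all-UMI and interaction fits were added after seeing the data.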

Additional observations from a re-analysis of the deposited data

Results flagged for a closer look

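Among 64 groups of 4 libraries examined, 2 held a library far from the other 3, where chance gives about 1 in 20. Srsf5 stood at 500 CPM in the Meg3- cells of Dlk1- replicate 2, against 295 to 317 CPM in the others. Tuba1a stood at 455 CPM in the Meg3+ cells of Dlk1- replicate 1, against 319 to 334 CPM in the others.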

How the results depend on the processing

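Without any 1 Dlk1- library the Dlk1- comparison gave 0 calls in each case, as without the block. No call also came from the plates alone, relative log expression size factors, library size alone, a minimum count of 5, 1500 or 3000 UMIs, Meg3+ from 2 UMIs or Gm10800 and Gm26870 left out. It gave 1 call with seed 3 (Zfp36), 1 with all UMIs of the same classes (0 to 6 without a library), 16 with classes from all UMIs (0 to 5 without a library) and 3257 of 13935 genes with no filter, where the 0.5 that voom adds to each count raises genes without UMIs in the smaller Meg3+ sums. The Dlk1+ comparison gave 0 calls without the replicate block, 3 with the 10 barcodes kept and 0 to 9 without a library, and the interaction 0 to 1 without a library. Signs of named genes turned in 16 cases. With no filter the log2 fold change was -0.0163 for Ifitm1, -0.16 for Adgrg1, -0.0810 for Srsf5, -0.10 for Tmbim6 and -0.12 for Ddx5. Seed 2 gave -0.26 for Gm21092, 0.0743 for Gpx1 and 0.10 for H2afz, seed 3 gave 0.0181 for mt-Rnr2 and seed 5 gave 0.36 for Ccnd2. At 1500 UMIs it was -0.18 for Srsf5, 0.10 for Hnrnpa3 and 0.0132 for Ccnd2, and at 3000 UMIs 0.0924 for Lrrc58. Ccnd2 was at 0.0909 in all UMIs, and Tmbim6 at -0.0850 without Gm10800 and Gm26870. The cause was not tested in these cases.

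The Meg3+ share difference was -28.5 points with all UMIs (exact permutation p = 0.0286), -15.4 to -24.8 without a library and -17.4 with the replicate number as block (exact p = 0.25). Genes per cell differed by 18.6 with means and by -12.5 to 5.67 without a library, and the Gm10800 and Gm26870 share by -1.45 to 0.871 points. Without a library the S phase difference was -602 to -376 and the G2 and mitosis difference -959 to -709 CPM, UMIs per cell differed by -793 to -230.5, the mitochondrial share by -1.09 to -0.00120 and the ribosomal protein share by 0.595 to 1.45 points. The edgeR and DESeq2 fits were not run. With 42 Meg3+ cells, 3 of them in replicate 3, sums of 5994 to 43952 UMIs set the precision, and genes under about 200 CPM were not tested at 2000 UMIs per cell.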

Other observations

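Of the p53 and PI3K-mTOR lists 1 gene each passed the filter at 2000 UMIs, Btg2 (log2 fold change 0.11) and Pik3r1 (0.31). In all UMIs of the same cells, among 4 p53 target genes tested, the kinase Plk2 had a log2 fold change of 1.64 (SE 0.44, limma-voom adjusted p = 0.304), higher in Meg3+ cells of 4 of 4 libraries, beside Cdkn1a, Btg2 (0.55) and Trp53 (-0.01). Plk2 passed the filter mostly through Meg3+ sums, where it is high. Of 12 PI3K-mTOR genes tested there, 7 were positive, against 54.9% of all 2120 genes. At unadjusted p under 0.05 stood 3, against 4.48% of all genes. These were the mTORC1 activator Rheb (1.05), the lipid phosphatase Inpp5d (0.94) and the mTORC1 inhibitor Ddit4 (0.90), none called. All 3 passed the filter mostly through Meg3+ sums, so this count is in part set by the filter. The list of HSC aging genes had 13 of 17 members positive in all UMIs, against 54.9% of all genes. The list median was 0.09, against 0.04 over all genes. Positive members included the adhesion protein Alcam (0.92) and von Willebrand factor, Vwf (0.66, higher in 4 of 4 libraries). The 4 negative members were Enpp5 (-0.63), Itgb3 (-0.29), Aldh1a1 (-0.21) and Ehd3 (-0.05). At 2000 UMIs the aging list summed to 6096, 8008, 9343 and 10034 CPM in Meg3+ cells of replicates 1 to 4 against 6134, 6446, 5539 and 7992 CPM.

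The remaining lists are given at 2000 UMIs. Other imprinted genes had 2 members tested, the noncoding RNA Kcnq1ot1 (log2 fold change 0.02) and Gnas (-0.13), and the imprinted cluster on chromosome 12 none. Ribosomal protein genes had 38 of 69 tested members positive and a median of 0.03. The nuclear respiratory chain had a median of 0.02 over 7 genes, the mitochondrial genome -0.17 over 14, glycolysis -0.14 over 5, heat shock 0.18 over 4, nuclear long noncoding RNAs 0.02 over 7 and the interferon response 0.14 over 3. Cell cycle inhibitors and D cyclins had a median of -0.55 over 3 genes. MHC class II had H2-Aa (0.38) as its tested member. The Notch pathway, TGF-beta pathway and PRC2 lists had no member tested, and their sums were 501 to 751 against 536 to 644 CPM, 523 to 667 against 500 to 871 CPM and 334 to 910 against 536 to 837 CPM in Meg3+ and Meg3- cells.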
